A study of Mus musculus with 20 samples.

Results

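The immediate early response genes followed here are 10 genes that cells switch on within minutes of a growth factor or stress signal: Egr1, Fos, Fosb, Fosl2, Jun, Junb, Atf3, Ier2, Ier3 and Dusp1. They were matched by symbol, and they were chosen with earlier results of these data known. All 10 are among the 23361 entries of the deposited count tables of both lines. All 10 passed the filter on low counts in every fit. Polyadenylated RNA of mouse embryonic stem cells was sequenced while the cells were converted to epiblast stem cells. A female line named PGK and a male line named E14 started in 2i medium at day 0 and were then grown on fibronectin with activin A and Fgf2. Each line was sampled at day 0, day 4, day 10, days 19 to 23 and days 27 to 30, in 2 differentiation experiments named diff2 and diff3. The days 19 to 23 are day 23 and day 21 in PGK and day 21 and day 19 in E14 (diff2, then diff3), and the days 27 to 30 are day 29 in both PGK experiments and day 27 and day 30 in E14. This gave 20 libraries in 10 groups of 2, the labels give no genotype or treatment other than the media, and every mean ± SD below has n = 2. The sexes are represented by 1 line each, and effects of sex and of line cannot be told apart. Cells were split with Accutase at day 4 and every 2 days from then on, per the labels' protocols.

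As background, immediate early genes need no new protein synthesis for their induction, because the factors that read the signal, such as serum response factor with its ETS partners and CREB, already sit in the cell and are phosphorylated by kinases of the MAPK pathways. In naive stem cells the 2i medium holds an inhibitor of MEK, the kinase that activates ERK, whereas Fgf2 in the epiblast stem cell medium signals through ERK. Egr1 encodes a zinc finger transcription factor that binds GC-rich sites. Fos, Fosb and Fosl2 encode leucine zipper proteins that pair with the Jun proteins to form AP-1, and Atf3 encodes a stress-induced relative of them. Ier2 and Ier3 encode small growth factor-induced proteins, Ier3 with a role in cell survival, and Dusp1 encodes a phosphatase that switches MAP kinases off.

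The promoters of 5 members are shown because their levels behaved differently below: Fosl2 and Jun rose in PGK, Fosb shared a motif with Fosl2, Fos did not pass the test in any comparison, and Dusp1 was called lower late in the added test of both lines together. RefSeq promoter windows (GRCm38.p6) of 8 of the 10 members were searched, and Egr1 and Ier2 were not among them. The windows span 250 bases before to 50 after the gene start and are written in the direction of transcription. They lie at chr5:32136222-32136521 (Fosl2, plus strand), chr7:19309996-19310295 (Fosb, minus strand), chr4:95052173-95052472 (Jun, minus strand), chr12:85473640-85473939 (Fos, plus strand) and chr17:26508423-26508722 (Dusp1, minus strand). Capitals mark the matches to the motifs named after the sequences.
Fosl2: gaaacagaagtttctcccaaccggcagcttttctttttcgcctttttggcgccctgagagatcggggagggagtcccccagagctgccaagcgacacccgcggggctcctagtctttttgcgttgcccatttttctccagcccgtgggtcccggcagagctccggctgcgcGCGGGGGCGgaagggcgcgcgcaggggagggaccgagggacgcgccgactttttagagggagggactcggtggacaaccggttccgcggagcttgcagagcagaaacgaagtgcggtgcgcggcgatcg
Fosb: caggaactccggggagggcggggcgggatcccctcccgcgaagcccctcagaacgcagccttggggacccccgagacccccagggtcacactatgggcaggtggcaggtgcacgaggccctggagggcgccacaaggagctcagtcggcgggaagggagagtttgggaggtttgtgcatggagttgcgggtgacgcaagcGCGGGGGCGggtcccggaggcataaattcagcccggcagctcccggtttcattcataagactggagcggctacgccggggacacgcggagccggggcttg
Jun: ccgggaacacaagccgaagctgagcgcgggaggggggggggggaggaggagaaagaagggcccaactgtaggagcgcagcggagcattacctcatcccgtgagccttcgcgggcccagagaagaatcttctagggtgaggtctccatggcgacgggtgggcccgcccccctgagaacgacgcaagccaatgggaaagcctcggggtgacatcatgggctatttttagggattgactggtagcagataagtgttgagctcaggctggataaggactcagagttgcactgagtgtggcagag
Fos: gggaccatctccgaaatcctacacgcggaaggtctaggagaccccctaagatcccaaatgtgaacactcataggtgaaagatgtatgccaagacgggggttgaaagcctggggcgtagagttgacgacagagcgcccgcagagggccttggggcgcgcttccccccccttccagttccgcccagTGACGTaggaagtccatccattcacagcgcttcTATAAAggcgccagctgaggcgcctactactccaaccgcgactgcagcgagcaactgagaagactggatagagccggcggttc
Dusp1: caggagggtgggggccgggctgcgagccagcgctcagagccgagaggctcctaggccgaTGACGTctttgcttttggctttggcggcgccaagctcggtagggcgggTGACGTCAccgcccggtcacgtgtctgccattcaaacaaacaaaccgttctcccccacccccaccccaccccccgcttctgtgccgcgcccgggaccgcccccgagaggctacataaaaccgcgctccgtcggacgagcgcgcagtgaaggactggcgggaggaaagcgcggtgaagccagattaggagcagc

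Both strands of each window were searched for CRE (TGACGTCA), AP-1 (TGANTCA), EGR (GCGGGGGCG), ETS (CCGGAAGT) and TATA box (TATAAA) motifs and for the CArG box that serum response factor binds. The EGR motif was found in the windows of Fosl2 and Fosb, against 2.91% of all 32851 windows. The full CRE was found in the window of Dusp1, against 1.79% of all windows, and the TATA box in those of Fos and Junb, against 13.6%. The shorter core of the CRE (TGACGT), added after the promoters had been read, was found in the windows of Fos, Dusp1 and Atf3, against 7.51% of all windows, and overlaps the full CRE in Dusp1. The AP-1 motif, present in 7.81% of all windows, the ETS motif, in 3.89%, and the CArG box, in 1.63%, were found in none of the 8 windows. Egr1 and Ier2 were not searched, so this says nothing about their promoters. A match describes the letters of the window only, and no match says only that these letters are not in it.

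Library totals were between 11847559 and 26936415 counts in 18 libraries. The other 2, both of E14 diff3, were shallow, holding 3376500 counts (day 0) and 2020254 counts (day 4): 10399 and 12835 genes had a count there, against 13347 to 16696 genes in the rest. Of the 10 members, 6 had a count in the E14 diff3 day 0 library and 8 in the day 4 library, and 3 counts there equal 0.888 and 1.48 CPM (counts per 1000000 of the library total). The libraries followed their labels by cell type markers: all 10 naive pluripotency genes fell and all 9 primed epiblast genes rose in PGK at days 27 to 30 relative to day 0, and 9 and 9 did so in E14. Markers of some other cell types were also higher late. The summed level of 10 fibroblast genes was 165 to 208 CPM in PGK and 98.3 to 289 CPM in E14 at days 27 to 30, against 11.7 to 30.0 CPM in PGK and 9.18 to 20.0 CPM in E14 at day 0. Col3a1 and Dcn were at 0 counts in PGK at day 0, and Col1a2, Dcn and Lum in E14. That of 6 definitive endoderm genes was 331 to 351 CPM in PGK and 305 to 400.0 CPM in E14 late, against 9.87 to 16.1 CPM in PGK and 2.37 to 7.16 CPM in E14 at day 0. The part of such cells in the late levels was not tested.

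Egr1, Fosl2 and Jun were the members called higher than at day 0 in PGK, and Egr1 was the one called higher in E14. Members not called may still have risen. A gene counts as called where the adjusted p of edgeR's quasi-likelihood test, over all genes tested, is under 0.05. In PGK at day 4 relative to day 0, 3 of the 10 members were called higher and 0 lower, where 8.35% of the 15284 genes tested were called higher. The median log2 fold change of the members was 0.62, against -0.01 over all genes. For days 27 to 30 relative to day 0 the same 3 of 10 were called higher in PGK, against 13% of genes, with a median of 1.06 for the members and -0.06 over all genes. In E14 at day 4 relative to day 0, 1 member was called higher, against 5.16% of the 14501 genes tested, with a median of 1.48 for the members and 0.15 over all genes. Late in E14, at days 27 to 30, 1 was called higher, against 8.73% of genes, with a median of 1.81 for the members and 0.19 over all genes. The E14 counts lie near the background, and those of PGK are 3 genes of 10.

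After day 4 no member passed the test between neighbouring stages. In PGK, 0 members were called at day 10 relative to day 4, where 1.51% of genes were called in either direction. The count was 0 at days 19 to 23 relative to day 10 (0% of genes) and 0 at days 27 to 30 relative to days 19 to 23 (0% of genes). In E14 the counts were again 0, 0 and 0, with 0.186%, 0% and 0% of genes called. In these 6 comparisons edgeR gave 3 members with an unadjusted p under 0.05, namely Fosl2, Jun and Junb in PGK at day 10 relative to day 4, and DESeq2 called 0. In the 4 comparisons with 0% called, genes with an unadjusted p under 0.05 numbered 208 and 231 in PGK and 938 and 106 in E14. There DESeq2 called 5 and 4 genes in PGK and 274 and 4 in E14.

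Egr1 was nearly silent at day 0 and well covered in every library after it. In PGK it had 0.325 and 0.327 CPM at day 0 (4 and 7 counts in diff2 and diff3), 43.1 and 51.1 at day 4, 109.6 and 23.4 at day 10, 31.4 and 31.6 at days 19 to 23, and 33.1 and 49.1 CPM at days 27 to 30. In E14 it had 0.522 and 0 CPM at day 0 (7 and 0 counts), 110.3 and 75.7 at day 4, 27.1 and 47.7 at day 10, 48.1 and 29.8 at days 19 to 23, and 58.9 and 31.9 CPM at days 27 to 30. All 16 later libraries were above all 4 day 0 libraries, and day 4 in E14 lay above every later E14 library. The 3 later stages of E14 overlapped each other. In PGK day 10 overlapped every later stage and day 4 overlapped days 27 to 30, while days 19 to 23 lay below day 4 and below days 27 to 30. The rise at day 4 was 7.09 ± 0.78 on the log2 scale in PGK (SE, edgeR adjusted p = 0.000314) and 7.92 ± 0.86 in E14 (adjusted p = 0.000721). Late, at days 27 to 30, the log2 fold change from day 0 was 6.87 ± 0.78 in PGK (edgeR adjusted p = 0.000218) and 6.86 ± 0.83 in E14 (adjusted p = 0.000769). The size of these folds rests on 11 day 0 counts in PGK and 7 in E14: against the E14 diff3 day 0 library alone, with 3 counts as its floor, Egr1 was at least 105-fold higher at day 4 and at least 51.1-fold higher at days 27 to 30. In bulk libraries, more cells that use the gene and more of its RNA per cell cannot be told apart.

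**Figure D1:**
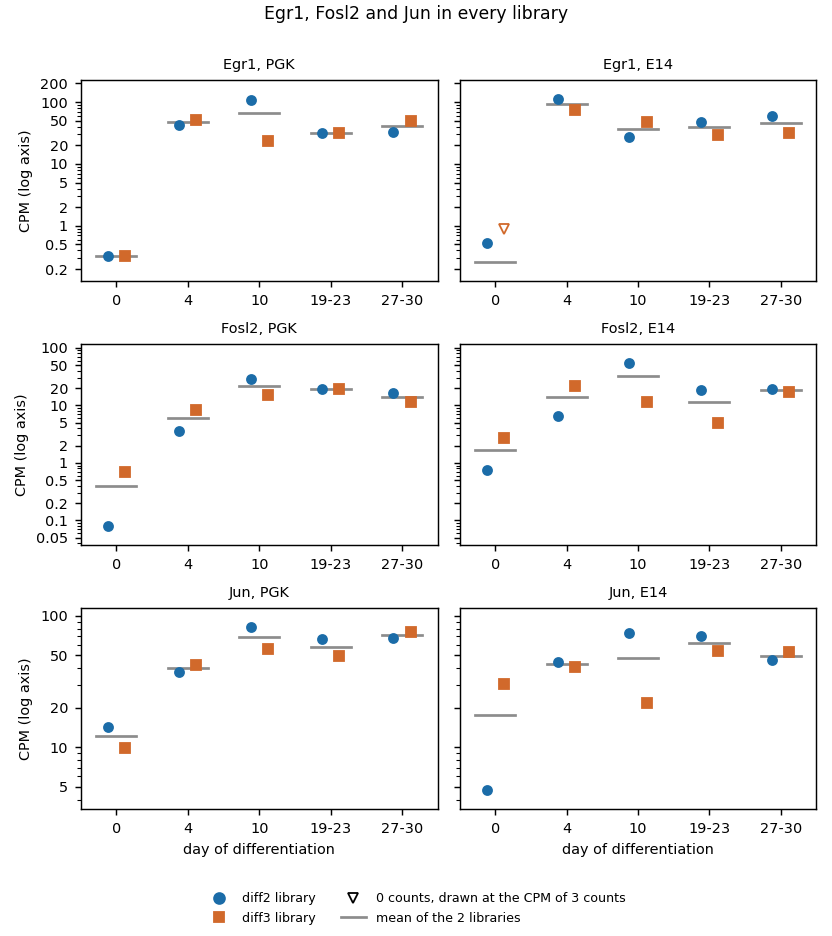
Egr1, Fosl2 and Jun in CPM (log axis) by day of differentiation in PGK (left) and E14 (right), with 1 point per library, grey bars for the mean of 2 libraries, and open triangles for libraries with 0 counts, drawn at the CPM of 3 counts. Egr1 lies at or under 0.522 CPM at day 0 and at or above 23.4 CPM in every later library, while the day 0 and later libraries of Jun overlap in E14.

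Fosl2 rose within the Fos family, whose other genes did not pass the test in either line. In PGK, Fosl2 had 0.0812 and 0.701 CPM at day 0 (1 and 15 counts), 3.65 and 8.36 at day 4, 28.8 and 14.96 at day 10, 19.1 and 18.9 at days 19 to 23, and 16.1 and 11.6 CPM at days 27 to 30. In E14 it had 0.746 and 2.67 CPM at day 0 (10 and 9 counts), 6.63 and 21.8 at day 4, 53.7 and 11.7 at day 10, 18.3 and 4.91 at days 19 to 23, and 19.3 and 17.3 CPM at days 27 to 30. Every later library was above the day 0 libraries of its line, and the 2 experiments lay far apart at days 4, 10 and 19 to 23 in E14. In PGK the log2 fold change from day 0 was 3.74 ± 0.78 at day 4 (SE, edgeR adjusted p = 0.01) and 4.92 ± 0.81 at days 27 to 30 (adjusted p = 0.00184). Leaving out PGK libraries moved the day 4 value to 3.03 (adjusted p = 0.0258, without diff2 day 0), 6.09 (0.00519, without diff3 day 0) and 3.01 (0.0494, without diff3 day 4). It moved the late value to 4.21 (0.0045) and 7.24 (0.00158) without the day 0 library of diff2 and of diff3. In E14 the log2 fold change was 3.20 ± 1.10 at day 4 (edgeR adjusted p = 0.101) and 3.56 ± 1.10 at days 27 to 30 (adjusted p = 0.0567), which did not pass. DESeq2 called both, with adjusted p of 0.0127 and 0.00374.

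Fos, the founding member of the family, did not pass the test in either line. In PGK it had 10.7 and 3.13 CPM at day 0, 3.44 and 4.16 at day 4, 13.7 and 5.23 at day 10, 5.82 and 4.88 at days 19 to 23, and 6.20 and 8.49 CPM at days 27 to 30. In E14 it had 3.88 and 6.81 CPM at day 0, 6.995 and 0 at day 4, 24.7 and 2.74 at day 10, 8.32 and 9.46 at days 19 to 23, and 10.4 and 5.05 CPM at days 27 to 30. In PGK the day 0 libraries spanned those of every later stage but the upper day 10 library. In E14 day 0 overlapped day 4, day 10 and days 27 to 30 and lay below days 19 to 23, and the 0 at day 4 is from the shallow library, where 3 counts would be 1.48 CPM. The log2 fold change from day 0 to day 4 was -0.92 ± 0.70 in PGK (SE, edgeR adjusted p = 0.425) and -0.42 ± 1.33 in E14 (adjusted p = 0.888). For days 27 to 30 relative to day 0 it was 0.01 ± 0.69 in PGK (edgeR adjusted p = 0.992) and 0.57 ± 1.32 in E14 (adjusted p = 0.81).

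Fosb was measured at few counts. It had 2.18 and 2.64 CPM in PGK and 1.35 and 0.773 CPM in E14 at days 27 to 30, against 0.0812 and 0.421 CPM in PGK (1 and 9 counts) and 0.373 and 0 CPM in E14 (5 and 0 counts) at day 0. The late libraries were above the day 0 libraries in both lines, although the 0 in E14 is from a library whose 3 counts would be 0.888 CPM, above the diff3 late value. In the libraries between, from day 4 to days 19 to 23, Fosb spanned 0.281 to 1.94 CPM in PGK and 0 to 1.71 CPM in E14. Its log2 fold change was 3.09 ± 1.26 in PGK (SE, edgeR adjusted p = 0.0983) and 2.05 ± 1.47 in E14 (adjusted p = 0.381).

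The share of Fosl2 in the summed counts of Fos, Fosb and Fosl2 is not corrected for gene length and can be compared between stages only. Fosl2 made up 31.7% to 100% in the 16 later libraries, with a median of 65.3%, against 0.746% to 28.1% in the 4 day 0 libraries, with a median of 15.7%. The ranges did not overlap, but their counting errors did. The later low point, E14 diff3 at days 19 to 23, had an exact binomial 95% interval of 26.5% to 37.2% (96 of 303 counts). The day 0 high point, the shallow E14 diff3 library, had one of 13.7% to 46.7% (9 of 32 counts). The 100% is the shallow E14 day 4 library, with 44 of 44 counts and an interval of 92.0% to 100%. These intervals cover counting error only. Fos held most of the family's counts at day 0 and Fosl2 in most later libraries.

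**Figure D2:**
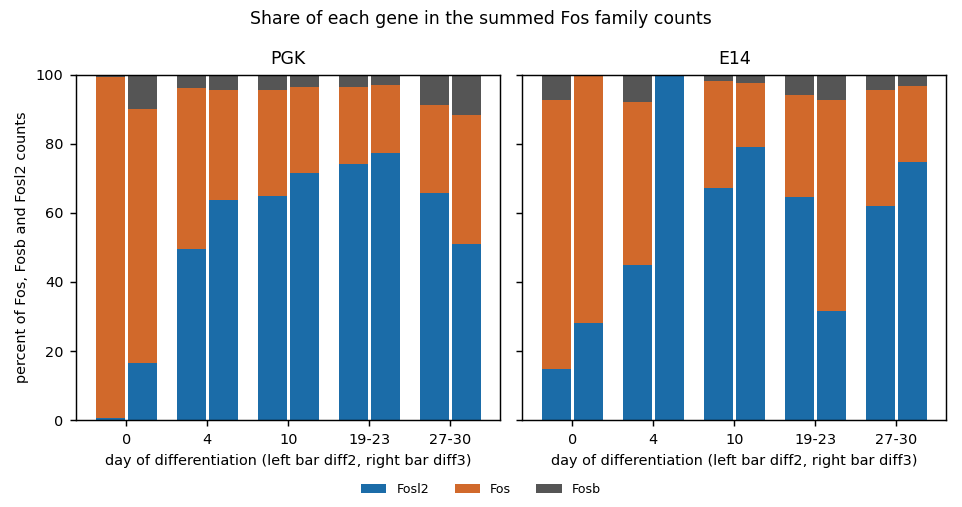
Share of Fosl2, Fos and Fosb in the summed counts of these 3 genes (percent, bars stacked to 100) by day of differentiation in PGK (left panel) and E14 (right panel), with 1 bar per library. Fosl2 is at most 28.1% at day 0 and at least 51.0% in the later libraries, other than diff2 at day 4 in PGK (49.5%) and E14 (44.8%) and E14 diff3 at days 19 to 23 (31.7%).

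Jun, the main partner of Fos proteins in AP-1, rose in PGK. It had 14.4 and 9.91 CPM at day 0, 37.6 and 42.5 at day 4, 82.1 and 56.3 at day 10, 66.9 and 49.7 at days 19 to 23, and 67.4 and 75.3 CPM at days 27 to 30 in PGK. In E14 it had 4.77 and 30.5 CPM at day 0, 44.6 and 41.1 at day 4, 73.5 and 21.6 at day 10, 69.8 and 53.9 at days 19 to 23, and 45.9 and 53.2 CPM at days 27 to 30. All 8 later PGK libraries were above both day 0 libraries, whereas in E14 the diff3 library at day 10 lay between the day 0 values. The log2 fold change from day 0 in PGK was 1.66 ± 0.31 at day 4 (SE, edgeR adjusted p = 0.00512) and 2.48 ± 0.31 at days 27 to 30 (adjusted p = 0.000413). In E14 it was 1.39 ± 0.75 at day 4 (edgeR adjusted p = 0.279) and 1.56 ± 0.75 at days 27 to 30 (adjusted p = 0.193). Without the shallow diff3 day 0 library it was 3.14 and 3.32, with the 4.77 CPM library alone at day 0. With the diff2 day 0 library left out instead, 30.5 CPM alone stands against 44.6 and 41.1 CPM at day 4. The late libraries then compare at 45.9 and 53.2 CPM, so the size of the E14 change depends on which day 0 library is kept. An antisense gene, Junos, overlaps Jun, and how strand was used in counting is not given in the sources used here, so reads of the 2 genes cannot be told apart with certainty.

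Junb, the Jun family protein that often restrains Jun, did not pass the test in either line. Its day 10 levels were 82.8 and 38.1 CPM in PGK and 50.1 and 31.5 CPM in E14. By days 27 to 30 it had 23.04 and 42.7 CPM in PGK and 32.8 and 18.8 CPM in E14, against 25.2 and 18.3 CPM in PGK and 7.46 and 10.7 CPM in E14 at day 0. The late and day 0 libraries overlapped in PGK and did not in E14. The log2 fold change at days 27 to 30 relative to day 0 was 0.52 ± 0.46 in PGK (SE, edgeR adjusted p = 0.43) and 1.53 ± 0.61 in E14 (adjusted p = 0.124; DESeq2 0.0366). Of the summed Jun and Junb counts, Jun made up 40.7% to 82.9% in the 16 later libraries, with a median of 62.1%, against 35.1% to 74.1% in the 4 day 0 libraries, with a median of 37.7%. Those ranges overlapped, with the shallow E14 library as the high point of day 0 (103 of 139 counts, exact 95% interval 66.0% to 81.2%). Prdx2 overlaps Junb on the opposite strand, with the same limit.

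Atf3, which is induced by amino acid and protein folding stress as well as by MAP kinases, was highest at day 4 on average. It had 7.87 and 18.1 CPM at day 0, 19.8 and 54.8 at day 4, 34.9 and 18.99 at day 10, 17.7 and 22.4 at days 19 to 23, and 22.7 and 19.6 CPM at days 27 to 30 in PGK. In E14 it had 6.64 and 0 CPM at day 0, 28.7 and 43.6 at day 4, 31.6 and 6.34 at day 10, 25.4 and 12.8 at days 19 to 23, and 24.6 and 21.7 CPM at days 27 to 30. In both lines the day 4 libraries lay above the day 0 libraries, by little in PGK, and the 0 in E14 is from the shallow library. The log2 fold change at day 4 relative to day 0 was 1.46 ± 0.55 in PGK (SE, edgeR adjusted p = 0.109; DESeq2 0.0447) and 3.30 ± 1.23 in E14 (adjusted p = 0.126; DESeq2 0.0128). Without the diff2 day 4 library the PGK value was 2.06 (adjusted p = 0.0314), so its call depends on that library and on the tool.

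Ier2 was at a high level throughout and did not pass the test in either line. It had 67.3 and 118 CPM in PGK and 62.2 and 48.4 CPM in E14 at days 27 to 30, against 56.0 and 79.2 CPM in PGK and 61.4 and 240.2 CPM in E14 at day 0. The groups overlapped in both lines, and the 240.2 CPM is the shallow E14 library. From day 4 to days 19 to 23 the gene spanned 71.3 to 141.9 CPM in PGK and 55.1 to 123 CPM in E14. The log2 fold change was 0.38 ± 0.34 in PGK (SE, edgeR adjusted p = 0.448) and -1.41 ± 0.61 in E14 (adjusted p = 0.154). In E14 the fall passed with that shallow library as the only day 0 library (-2.07, adjusted p = 0.0141).

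Ier3 was higher late in every library, without passing the test in a line. At days 27 to 30 it had 7.92 and 9.91 CPM in PGK and 8.32 and 14.98 CPM in E14, against 4.46 and 1.59 CPM in PGK and 2.54 and 0 CPM in E14 at day 0. Late over day 0, the log2 fold change was 1.49 ± 0.75 in PGK (SE, edgeR adjusted p = 0.171) and 2.96 ± 1.34 in E14 (adjusted p = 0.168; DESeq2 0.0359). Between day 4 and days 19 to 23 Ier3 spanned 2.79 to 20.2 CPM in PGK and 2.04 to 30.9 CPM in E14. Its highest values, 30.9 CPM in E14 and 20.2 CPM in PGK, were in the diff2 library of day 10 and the diff3 library of days 19 to 23.

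Dusp1 did not pass the test in either line. It had 18.01 and 26.5 CPM in PGK and 24.3 and 19.8 CPM in E14 at days 27 to 30, against 83.5 and 28.1 CPM in PGK and 35.0 and 69.0 CPM in E14 at day 0. The late libraries were below the day 0 libraries in both lines, by little in PGK diff3. The stages between spanned 25.2 to 52.3 CPM in PGK and 13.9 to 66.0 CPM in E14, across both ranges. Its late log2 fold change was -1.40 ± 0.52 in PGK (SE, edgeR adjusted p = 0.0739; DESeq2 0.0248) and -1.22 ± 0.58 in E14 (adjusted p = 0.189). Without the PGK diff3 day 0 library the PGK value was -1.99, with the 83.5 CPM library alone at day 0. With the diff2 day 0 library left out instead, 28.1 CPM alone stands against the late 18.01 and 26.5 CPM. The size of the fall in PGK thus depends on the diff2 day 0 library. In the annotation (GENCODE M21, GRCm38) the Dusp1 gene overlaps Ergic1 on the opposite strand and 3 other entries, so its reads too may be shared.

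**Figure D3:**
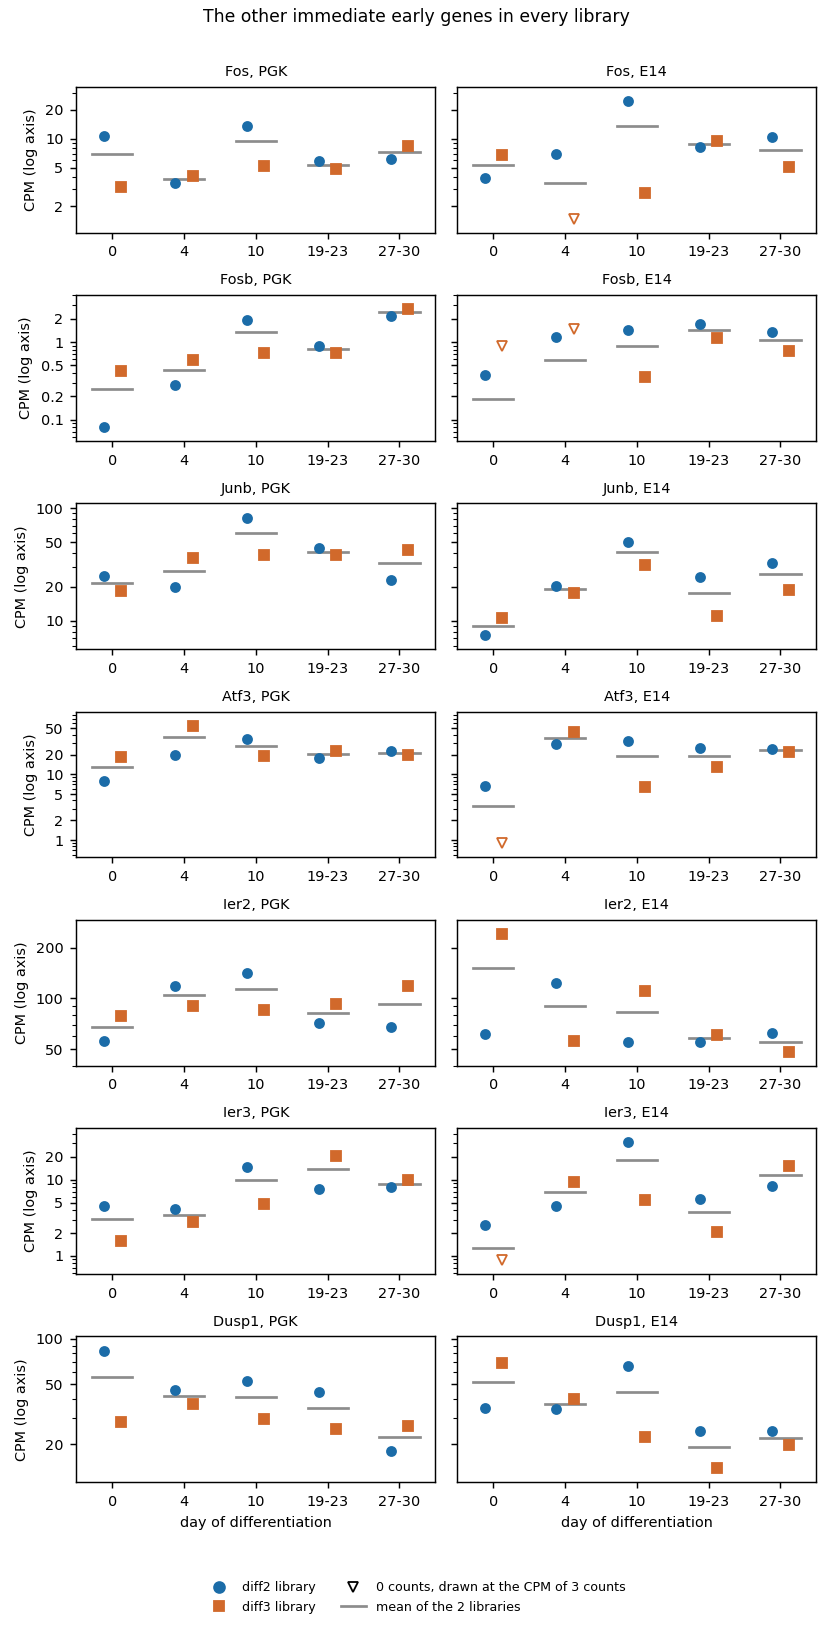
The other 7 members in CPM (log axis) by day of differentiation in PGK (left) and E14 (right), drawn like Egr1, Fosl2 and Jun. The 2 libraries of a stage often differ by as much as the stages do, as for Fos at day 10 in E14 (24.7 and 2.74 CPM), while Dusp1 at days 27 to 30 lies at or under 26.5 CPM and at day 0 at or above 28.1 CPM.

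When the mean change of both lines was tested in the fit of all 20 libraries, a comparison added after the values of each line had been seen, more members passed. At day 4 relative to day 0, 4 of 10 were called higher, against 14.5% of the 15732 genes tested: Egr1 by 7.53 ± 0.60 on the log2 scale (SE, edgeR adjusted p = 1.94e-07), Fosl2 by 3.52 ± 0.72 (0.00177), Jun by 1.57 ± 0.43 (0.0134) and Atf3 by 2.40 ± 0.68 (0.0151). The call of Jun was lost without PGK diff3 day 0 (adjusted p = 0.0639), and that of Atf3 without PGK diff2 day 0 (0.0726) and without PGK diff3 day 4 (0.0769). At day 10 relative to day 4, 0 members were called, against 3.82% of genes; edgeR gave Fosl2 (0.0285) and Junb (0.00947) an unadjusted p under 0.05, and DESeq2 called 0.

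At days 27 to 30 relative to day 0, 6 of 10 members were called higher in both lines together, against 20% of genes, and 1 lower, against 15.9% of genes. Egr1 was higher by 6.89 ± 0.59 on the log2 scale (SE, edgeR adjusted p = 2.57e-07), Fosl2 by 4.29 ± 0.74 (0.000267) and Jun by 2.06 ± 0.44 (0.00161), and these 3 calls held without any single library. Ier3 was higher by 2.25 ± 0.77 (edgeR adjusted p = 0.0319), Junb by 1.06 ± 0.37 (0.0347) and Fosb by 2.62 ± 0.97 (0.0449), and Dusp1 fell by 1.28 on the log2 scale, with an SE of 0.40 (0.0208). Each of these 4 calls was lost when certain single libraries were left out. For Fosb these were PGK diff2 day 0 (edgeR adjusted p = 0.161), PGK diff3 day 0 (0.0538), PGK diff2 (0.0617) and diff3 (0.0724) days 27 to 30, E14 diff3 day 0 (0.101), and E14 diff2 (0.13) and diff3 (0.0771) days 27 to 30. For Ier3 they were PGK diff3 day 0 (0.119), PGK diff2 (0.0573) and diff3 (0.0695) days 27 to 30, E14 diff3 day 0 (0.0609), and E14 diff2 (0.0537) and diff3 (0.107) days 27 to 30. For Junb they were PGK diff2 (0.0665) and diff3 (0.126) day 0, PGK diff3 days 27 to 30 (0.155), E14 diff2 day 0 (0.0975) and E14 diff2 days 27 to 30 (0.192). For Dusp1 they were PGK diff2 day 0 (0.129), PGK diff2 days 27 to 30 (0.0664), E14 diff3 day 0 (0.0503) and E14 diff3 days 27 to 30 (0.0655). With a term for the library code, 6 members were called in this comparison, all 6 of them higher, so the call of Dusp1 was lost there too. In the main fit Atf3 (edgeR adjusted p = 0.0615), Ier2 (0.328) and Fos (0.78) did not pass. Both comparisons with day 0 share the day 0 libraries, as do those within each line.

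**Figure D4:**
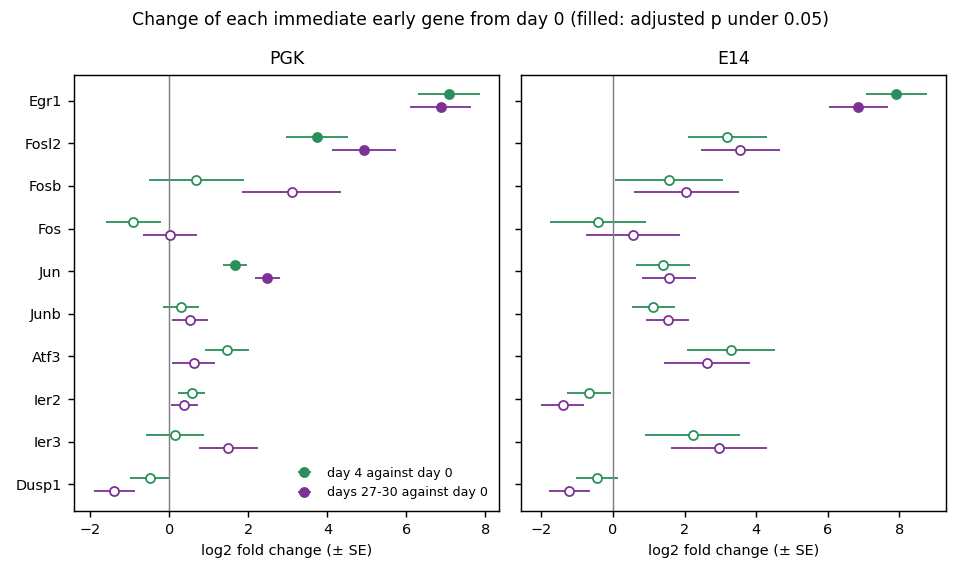
Log2 fold change from day 0, ± SE, of each member at day 4 (upper point) and at days 27 to 30 (lower point) in PGK (left) and E14 (right), from edgeR's fit of the 10 libraries of each line. Filled points passed the adjusted threshold: Egr1 (7.09 and 6.87), Fosl2 (3.74 and 4.92) and Jun (1.66 and 2.48) in PGK, and Egr1 (7.92 and 6.86) in E14.

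Between the lines no member passed the test at any stage. With edgeR, 0 of the 10 members were called in PGK relative to E14 at day 0 (0.509% of genes called), day 4 (0.165%), day 10 (0.0636%), days 19 to 23 (0.0636%) and days 27 to 30 (0.0572%), and DESeq2 also called 0 in each. At an unadjusted p under 0.05 stood Junb at day 0 and at days 19 to 23. Junb had 25.2 and 18.3 CPM in PGK and 7.46 and 10.7 CPM in E14 at day 0, a log2 fold change of 1.35 ± 0.53 (SE, edgeR adjusted p = 0.311). Junb levels at days 19 to 23 were 44.0 and 38.6 CPM in PGK and 24.3 and 11.1 CPM in E14, a log2 fold change of 1.25 ± 0.52 (edgeR adjusted p = 0.981). The PGK libraries were above the E14 libraries at both stages. With the shallow E14 library as the only E14 day 0 library, 2 members were called between the lines at day 0, and in the tests of the change described next 1 at day 4 and 2 at days 27 to 30. Egr1 differed between PGK and E14 by -0.98 ± 0.59 at day 4 on the log2 scale (edgeR adjusted p = 0.866).

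The change from day 0 was not called different between the lines for any member. For the change to day 4, 0 members were called by edgeR (0.0763% of genes) and 0 had an unadjusted p under 0.05. For the change to days 27 to 30, 0 were called (0.0509% of genes) and 1, Ier2, had an unadjusted p below 0.05. DESeq2 called 0 in both. The difference for Ier2 was 1.83 ± 0.75 on the log2 scale (SE, edgeR adjusted p = 0.715). For Fosl2 and Jun, called in PGK alone, the difference in the late change was 1.38 ± 1.36 (edgeR adjusted p = 0.906) and 0.95 ± 0.84 (adjusted p = 0.895). For Egr1 the difference was -0.79 ± 1.17 at day 4 (edgeR adjusted p = 0.937) and 0.07 ± 1.08 late (adjusted p = 1). With SEs of this size and 2 libraries a group, differences of a few fold between the lines were not detectable.

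At day 10 the summed level of the 10 members was 563 CPM in diff2 and 277 CPM in diff3 in PGK, and 415 and 259.9 CPM in E14, with 1 library each and thus no test. In PGK all 10 members were higher in diff2 than in diff3, 5 of them at least 2-fold, against 12.9% of 15732 genes at least 2-fold higher in diff2; the median log2 difference, diff2 minus diff3, was 1.004 for the members and 0.03 over all genes. In E14, 7 of 10 were at least 2-fold higher in diff2, against 18.4% of genes, and 1 at least 2-fold lower, with a median of 1.63 for the members and 0 over all genes. Fos stood at 13.7 CPM in the PGK library of diff2 and 5.23 CPM in that of diff3, and at 24.7 and 2.74 CPM in those of E14. Egr1 went opposite ways, at 109.6 CPM in PGK diff2 against 23.4 CPM in PGK diff3, but at 27.1 CPM in E14 diff2 against 47.7 CPM in E14 diff3. The other 34 immediate early genes summed to 2564 CPM in diff2 and 2087 CPM in diff3 in PGK, and to 3542 and 2124 CPM in E14. At the same stage 18 heat shock and amino acid stress genes summed to 8418 CPM in diff2 and 10093 CPM in diff3 in PGK, and to 5853 and 12348 CPM in E14. Markers of other cell types differed as well. The 6 primitive streak mesoderm genes summed to 323 CPM in diff2 and 609.7 CPM in diff3 in PGK, and to 107 and 593 CPM in E14. The 6 definitive endoderm genes summed to 206 and 572 CPM in PGK and to 71.1 and 109 CPM in E14, and the 6 trophoblast genes to 126 and 284 CPM in PGK and to 71.9 and 359 CPM in E14. In PGK the 10 fibroblast genes summed to 45.0 and 77.7 CPM, and in E14 to 80.4 and 76.4 CPM. The 9 primed epiblast genes summed to 2628 and 3173 CPM in PGK and to 1664 and 2405 CPM in E14. The diff2 libraries of days 0, 4 and 10 carry a code in their titles that the diff3 libraries lack. At day 0, where the code differs in the same way, 3 members in PGK were at least 2-fold higher in diff2 and 3 at least 2-fold lower, against 13.4% and 15.001% of genes. In E14 these counts were 4 and 3, against 40.3% and 10.1% of genes. At day 4 they were 0 and 2 in PGK, against 14.6% and 8.97% of genes, and 3 and 2 in E14, against 25.1% and 11.4% of genes. At days 19 to 23, without the code, they were 0 and 1 in PGK, against 5.09% and 9.26% of genes. In E14 they were then 3 and 0, against 8.14% and 4.75%, with a median of 0.74 for the members and 0 over all genes. At days 27 to 30 they were 0 and 0 in PGK, against 17.1% and 6.36% of genes. For E14 they were then 1 and 0, against 3.01% and 8.15%, with a median of 0.37 for the members. The part of these cell types, of the stress genes and of the library code in the gap was not tested.

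**Figure D5:**
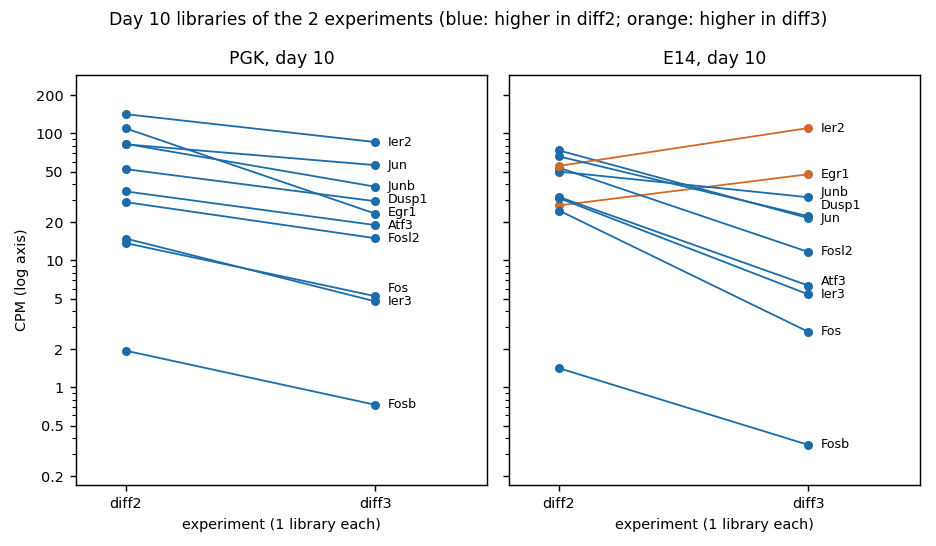
CPM (log axis) of each member at day 10 in diff2 and diff3, with 1 library each, in PGK (left panel) and E14 (right panel). Lines join the 2 experiments, blue where diff2 is higher and orange where diff3 is higher: all 10 are blue in PGK, and Egr1 and Ier2 are orange in E14.

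Per kilobase of annotated exon (CPM per kb, GENCODE M21), which allows genes to be compared, Ier2 had the highest mean at every stage in both lines and Fosb the lowest. In PGK at day 0, Fosb (0.0402 ± 0.0385, SD) and Fosl2 (0.0404 ± 0.0453) could not be ranked. At days 27 to 30 in PGK, Ier2 stood at 60.9 ± 23.6 CPM per kb (SD), then Jun at 22.4 ± 1.75, Junb at 14.3 ± 6.05, and Atf3 at 9.84 ± 1.03. Below them stood Egr1 at 9.16 ± 2.52, Ier3 at 7.88 ± 1.24, Dusp1 at 6.72 ± 1.81, Fos at 3.12 ± 0.69, Fosl2 at 1.43 ± 0.33 and Fosb at 0.386 ± 0.0525. Neighbours from Junb to Dusp1 in this order differed by less than the larger SD of the pair. In E14 late the order began with Ier2 at 36.3 ± 6.39, Jun at 15.5 ± 1.63 and Junb at 11.2 ± 4.32 CPM per kb and ended with the same Fos, Fosl2 and Fosb. At day 0 Dusp1 took the next place after Ier2, with 16.9 ± 11.8 CPM per kb in PGK and 15.7 ± 7.27 in E14, and Egr1 stood near the end, with 0.0727 ± 0.000407 in PGK and 0.0582 ± 0.0823 in E14. At day 4 Egr1 had 10.5 ± 1.26 CPM per kb in PGK and 20.7 ± 5.45 in E14, where it was next to Ier2. Fosl2, though called higher, was below Fos per kilobase on average in all 10 groups, while its annotated exons are longer (9680 bases for Fosl2 and 2352 bases for Fos). In E14 at day 4 the means were nearly equal, at 1.49 ± 2.10 for Fos and 1.47 ± 1.11 for Fosl2. The E14 diff3 libraries had Fosl2 above Fos at day 4 (2.25 against 0) and day 10 (1.20 against 1.16).

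Of 34 other immediate early genes, 4 were called higher and 1 lower in PGK at day 4 relative to day 0, and 4 and 2 in E14, where 8.35% of all genes were called higher in PGK and 5.16% in E14. Their median log2 fold changes were 0.52 in PGK and 0.59 in E14, against -0.01 and 0.15 over all genes. Over all genes, 984 of 15284 were called lower at day 4 in PGK and 638 of 14501 in E14. At days 27 to 30, 7 of the 34 were higher and 1 lower in PGK, and 6 and 2 in E14, where 13% and 8.73% of all genes were called higher. Called lower then were 1839 of 15284 genes in PGK and 724 of 14501 in E14. Myc, the growth-related transcription factor, had 41.5 and 107 CPM in PGK and 92.4 and 54.0 CPM in E14 at day 4, against 1.14 and 2.71 CPM in PGK and 1.72 and 0.296 CPM in E14 at day 0. Its day 4 libraries lay above the day 0 libraries in both lines, with log2 fold changes of 5.16 ± 0.54 in PGK (SE, edgeR adjusted p = 0.00024) and 5.91 ± 0.74 in E14 (adjusted p = 0.0011). In PGK at day 4 Klf6, a zinc finger factor, rose by 1.49 ± 0.25 and Mafk, a small Maf protein, by 1.64 ± 0.36 (edgeR adjusted p = 0.00318 and 0.0131). In E14 at day 4 Trib1, a pseudokinase, rose by 2.93 ± 0.44 and Cyr61, a matrix protein, by 3.12 ± 0.58 (edgeR adjusted p = 0.00291 and 0.00832). Among 17 AP-1 and ATF partners, 15 of which were tested, 1 was called higher at day 4 in PGK, Mafk, which the list before also holds.

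Genes known to respond to ERK and to serum response factor were called higher in part. Beside the counts of this paragraph, 8.35% of all genes were called higher in PGK at day 4 and 5.16% in E14. Called lower at day 4 were 984 of 15284 genes in PGK and 638 of 14501 in E14. Of 14 ERK feedback and ETS target genes, 7 were called higher in PGK at day 4 and 8 in E14, with medians of 1.95 in PGK and 1.75 in E14. Dusp6, the phosphatase specific to ERK, had 123 and 246 CPM in PGK and 192 and 207 CPM in E14 at day 4, against 3.73 and 2.20 CPM in PGK and 3.65 and 8.29 CPM in E14 at day 0. All day 4 libraries were above all day 0 libraries, by a log2 fold change of 5.93 ± 0.50 in PGK (SE, edgeR adjusted p = 7.71e-05) and 5.18 ± 0.43 in E14 (adjusted p = 0.000288). Of 11 EGR and serum response factor target genes, 7 rose in each line at day 4, with medians of 1.94 in PGK and 2.58 in E14. Late, at days 27 to 30 relative to day 0, the ERK list had 10 genes higher in PGK and 9 higher and 1 lower in E14, and the EGR and serum response factor list 8 higher in each line. Over all genes, 13% were called higher late in PGK and 8.73% in E14, and 724 of 14501 lower in E14. The second list includes Tagln, a smooth muscle actin-binding protein, with 64.6 and 134 CPM in PGK and 98.6 and 141 CPM in E14 at day 4, against 1.06 and 1.12 CPM in PGK and 1.04 and 0 CPM in E14 at day 0. Of 23 inducers (serum response factor, its ETS partners, CREB and MAP kinases), 2 rose and 1 fell in each line at day 4, with a median of 0.10 in E14 and one within 0.01 of 0 in PGK. Srf was among the risers in both, by 1.25 ± 0.31 in PGK (edgeR adjusted p = 0.0236) and 1.58 ± 0.43 in E14 (adjusted p = 0.0443). Elk1, an ETS partner of it, fell by 0.88 in PGK, with an SE of 0.24 (adjusted p = 0.0307). Of 18 heat shock and amino acid stress genes, 2 fell in PGK at day 4, namely Asns, which makes asparagine, by 1.94 on the log2 scale (edgeR adjusted p = 0.00352) and Hsp90aa1, a chaperone, by 1.16 (0.0273). In E14, 1 fell, the small heat shock gene Hspb1, by 3.92 (0.0033).

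The genes whose log2 CPM over the 20 libraries was most like that of a member, by Pearson's r, are given as a description. For Egr1 they were Esrp1 (0.982), Galnt3 (0.978) and Crmp1 (0.976); for Fosl2 they were Kctd11 (0.961), Irs1 (0.959) and Bcl2l11 (0.955); and for Jun they were Unc5b (0.935), Micall1 (0.917) and Tmcc3 (0.906). Esrp1 averaged 1.09 CPM in PGK and 0.819 CPM in E14 at day 0, and between 135 and 220.0 CPM in the 8 later groups. Egr1 shared the low start, while its later group means ran from 31.5 CPM (PGK, days 19 to 23) to 93.0 CPM (E14, day 4). For Atf3 they were Syt14 (0.971), Tbc1d5 (0.959) and Btbd9 (0.958), for Ier3 Pfkfb3 (0.953), Ppme1 (0.908) and Man1c1 (0.905), and for Junb Baz1a (0.903), Plau (0.876) and Itpkb (0.848). For the other members the closest genes were, for Fos, Bsdc1 (0.89) and Qsox1 (0.858), for Fosb Lrrc8e (0.897) and Stk36 (0.878), for Ier2 Exosc4 (0.89), Aimp2 (0.888) and 2310036O22Rik (0.884), and for Dusp1 Slc20a1 (0.873), Tnfrsf10b (0.809) and Aldh4a1 (0.807). Among the members themselves the closest pairs were Fosl2 and Jun (0.815), Ier3 and Atf3 (0.794) and Egr1 and Fosl2 (0.791). The points share their libraries, the 4 day 0 libraries stand apart for Egr1 and Fosl2, and the shallow library with 0 counts weighs on Atf3 and Ier3.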

How the data were processed

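The deposited tables hold raw read counts per gene, 1 table per line, made by the authors with tools that the submitters' processing notes list without roles (CASAVA 1.8.2, Cuffdiff, DESeq2, build GRCm38, also called mm10); the aligner, annotation and strand setting behind the counts: not given in the sources used here. Library totals were 2020254 to 26936415 counts. Each line (10 libraries) and both together (20) were fitted with edgeR 4.0.16 in R 4.3.3 by the quasi-likelihood test: TMM scaling, filterByExpr with a count minimum of 10, a group mean per stage, robust dispersion, Benjamini-Hochberg adjustment over all genes tested, threshold 0.05. Of the comparisons, 17 were planned and 3 added (both lines together). CPM is the raw count per 1000000 of the library total; values per kilobase use GENCODE M21 exons, and likeness uses log2 CPM with a prior count of 2. DESeq2 1.42.0, other scaling, filters, blocks and left-out libraries were alternatives. The fits were also run on simulated counts with planted changes. Those counts had a smaller spread than the fits of these data estimated, so that run does not measure how the fits perform here.

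The members, the gene lists and the comparisons were chosen with earlier results of these data known. The 10 members are always named; from each list up to 3 genes per comparison are named, by smallest adjusted p among those called, and for each member the 3 most similar genes, of which some are not reported here. Dusp6, Myc and Tagln, for which levels are given, follow that rule.

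Replicates 2 and 3 are the experiments diff2 and diff3, which the labels name as separate differentiations. The difference diff3 minus diff2 correlated positively among days 0, 4 and 10 (r = 0.391 to 0.464 in PGK, 0.155 to 0.235 in E14, over genes). With and among the later stages r was -0.082 to 0.0986 in PGK and -0.227 to 0.0486 in E14. The -0.227 is for days 19 to 23 with days 27 to 30. At days 0, 4 and 10 the diff2 libraries are those with the code in their titles, so experiment and code cannot be told apart there. Each edgeR p-value tests a difference between groups against a spread estimated from the 2 samples a group over all groups of the fit. The residual degrees of freedom were 5 in each line and 10 in the fit of both. The number of samples a group limits the precision of each p-value.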

Additional observations from a re-analysis of the deposited data

Results flagged for a closer look

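Between days 19 to 23 and days 27 to 30, the estimated change of Jun had opposite signs in the lines. At days 27 to 30 relative to days 19 to 23 its log2 fold change was 0.31 ± 0.29 in PGK (SE) and -0.32 ± 0.72 in E14. Both late libraries were above both earlier ones in PGK and below them in E14, by little. The nearest libraries, late against earlier, had 67.4 and 66.9 CPM in PGK and 53.2 and 53.9 CPM in E14. PGK minus E14 was 0.62 on the log2 scale. Neither change passed edgeR's test, and this difference between the lines was not tested.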

How the results depend on the processing

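Over the alternatives run, no called value reversed, and of the alternative values 1849 kept their direction and side of the threshold, 188 moved, 33 gained a call and 30 lost one. DESeq2 called more members, with 5 in place of 3 in PGK at days 27 to 30 relative to day 0, 3 in place of 1 in E14 at day 4 and 5 in place of 1 in E14 at days 27 to 30. With no filter on low counts 2 were called in E14 at day 4 and 2 at days 27 to 30. Without both shallow E14 libraries, chosen after seeing the data, 2 were called in E14 at days 27 to 30 and 4 in place of 7 in both lines together.

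Leaving out each library in turn, the number of members called ranged from 3 to 4 in PGK at day 4 and at days 27 to 30, from 1 to 3 in E14 at day 4, from 1 to 4 in E14 at days 27 to 30, from 3 to 5 in both lines together at day 4 and from 4 to 8 at days 27 to 30. It ranged from 0 to 2 between the lines at day 0, and from 0 to 1 and from 0 to 2 for the difference in the change to day 4 and to days 27 to 30. A library left alone in its group is assumed to vary like the other groups.

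With the experiment as a replicate block, the member counts were again 3 and 3 in PGK, 1 and 1 in E14, 4 and 7 in both lines together and 0 elsewhere, so the block changed no count of members. Over all genes the block gave 351 calls in place of 231 in PGK at day 10 relative to day 4, 11 in place of 0 in E14 at days 19 to 23, 44 in place of 26 and 16 in place of 10 between the lines at days 4 and 10, and 26 in place of 12 for the difference in the change to day 4. DESeq2 called 3535 genes in place of 2260 in PGK and 2861 in place of 1386 in E14 at day 4, 855 in place of 231 and 515 in place of 27 at day 10 relative to day 4, and 3599 in place of 1990 in E14 at days 27 to 30. Between the lines it called 700, 235, 78, 89 and 25 genes over the 5 stages in place of 80, 26, 10, 10 and 9, and 200 and 109 in place of 12 and 8 for the difference in the change. With both lines together it called 1306 in place of 601 at day 10 relative to day 4. With no filter on low counts, 439 and 139 genes were called in PGK and E14 at day 10 relative to day 4, 59 in E14 at days 19 to 23, 181 and 71 between the lines at days 0 and 4, and 52 and 13 for the difference in the change. With a term for the library code, 3698 and 655 genes were called in PGK at days 4 and 10, 185, 66, 20 and 14 between the lines at days 0, 4, 10 and 27 to 30, 32 for the difference in the change to day 4, and 904 in both lines at day 10. DESeq2's size factors in edgeR gave 3 genes in E14 at days 19 to 23. Without both shallow libraries 887 and 78 genes were called in E14 at days 4 and 10, 35 and 15 between the lines at days 0 and 4, and 1 and 5 for the difference in the change. Depth limits the E14 values at days 0 and 4 most, where 3 counts in diff3 are 0.888 and 1.48 CPM, above the level of several members. The causes of these differences were not tested.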
